A study of Rattus norvegicus with 8 samples.

Results

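Here 9 genes of thyrotropin-releasing hormone (TRH) and thyroid hormone action were followed in the hypothalamus of lactating Wistar rats on postpartum day 7, in 4 control dams and 4 dams exposed to TCDD. They were Trh, Slco1c1, Dio2, Dio3, Thra, Thrb, Klf9, Hr and Nrgn, taken as every non-control probe of the array that carries one of these gene names. This gave 9 of the 26269 gene names on the array, each with 1 probe and 1 spot per array. TCDD, a persistent dioxin, binds the transcription factor AhR (aryl hydrocarbon receptor). The study asks how it affects hypothalamic mRNAs of mothers. Both groups were lactating dams of the same strain, the 4 control arrays lay on one slide and the 4 TCDD arrays on another, and slide and exposure cannot be told apart. How the dams were exposed (dose, route, days) and what the control dams received is not given in the sources used here.

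TRH is made from a larger precursor, and neurons of the paraventricular nucleus release it to drive thyrotropin from the pituitary, while other hypothalamic TRH neurons serve local signalling. Thyroid hormone enters the brain through transporters, is turned into its active form, triiodothyronine, or degraded by deiodinases, and acts through nuclear receptors that switch target genes on or off. Triiodothyronine lowers Trh in the paraventricular nucleus, which closes the feedback loop, and raises Klf9 and Hr in brain.

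The promoters of 3 genes are shown because Trh, Klf9 and Nrgn are the members whose values stood furthest from equality relative to their error or did not overlap between groups. Each is the 250 bases before the gene's start in the RefSeq promoter table (build GRCr8), which matched 7 of the 9 genes. Capitals mark the nuclear receptor half-site AGGTCA and the AhR core GCGTG, either strand. The lines are Trh at chr4:126301763-126302012 (minus strand), Klf9 at chr1:230126396-230126645 (plus strand) and Nrgn at chr8:45452418-45452667 (minus strand).
Trh: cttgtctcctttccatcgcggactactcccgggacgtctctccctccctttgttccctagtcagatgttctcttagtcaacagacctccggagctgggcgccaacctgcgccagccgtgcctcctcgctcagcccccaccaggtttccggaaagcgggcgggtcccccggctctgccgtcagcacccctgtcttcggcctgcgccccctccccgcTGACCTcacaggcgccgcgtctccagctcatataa
Klf9: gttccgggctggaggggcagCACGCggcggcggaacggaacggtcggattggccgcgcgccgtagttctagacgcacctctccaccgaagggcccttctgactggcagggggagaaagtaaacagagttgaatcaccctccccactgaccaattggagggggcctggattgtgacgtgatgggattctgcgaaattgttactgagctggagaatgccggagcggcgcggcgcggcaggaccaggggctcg
Nrgn: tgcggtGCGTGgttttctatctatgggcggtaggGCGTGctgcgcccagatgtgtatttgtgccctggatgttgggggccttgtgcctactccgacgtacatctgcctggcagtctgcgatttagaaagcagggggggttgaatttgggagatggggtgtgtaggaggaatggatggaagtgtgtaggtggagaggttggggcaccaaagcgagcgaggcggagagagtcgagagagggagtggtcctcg

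The Trh promoter held 1 half-site, which starts 35 bases before the gene's start and lies inside TGACCTCA, the element known in TRH promoters as Site 4. Of 33469 promoter windows of the same length, 14.1% held AGGTCA and 2.31% held TGACCTCA on either strand; these motifs overlap. The Klf9 window held 1 AhR core, the Nrgn window 2 and the Thrb window 1, against 25.9% of all windows with at least 1. No AhR core was found in the windows of Trh, Dio2, Dio3 and Thra. The half-site was found in none of the other 6 matched members (Dio2, Dio3, Thra, Thrb, Klf9 and Nrgn). A match of letters is a description and not a binding site.

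None of the 8 measured members passed the test between TCDD and control dams. The test was limma across all 16574 genes, adjusted by Benjamini-Hochberg at 0.05, which called 4 genes, or 0.0241% of those tested, and 0.0241% in the higher direction. Of the 8, 2 had a higher mean in TCDD dams and 6 a lower one, where 51.5% of all genes had a log2 fold change above 0. Of the 6, Thra, Hr and Dio2 changed sign under at least 1 alternative analysis. The median log2 fold change of the 8 was -0.13, beside 0.0042 over all genes. At an unadjusted p under 0.05, 1 member was higher (Trh) and 1 lower (Klf9), where 7.95% of all genes were higher and 2.82% lower. Among the 11929 tested genes whose name is a current rat symbol or synonym, as for all members, these shares were 3.91% and 3.29%. In 1 member, Nrgn, every TCDD dam lay below every control dam. Such a separation was found downward in 1.72% of all genes and upward in 5.33% (1.99% and 2.44% of genes named so). The remaining gene, Thrb, was well above background on 0 of 8 arrays and was not tested.

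**Figure D1:**
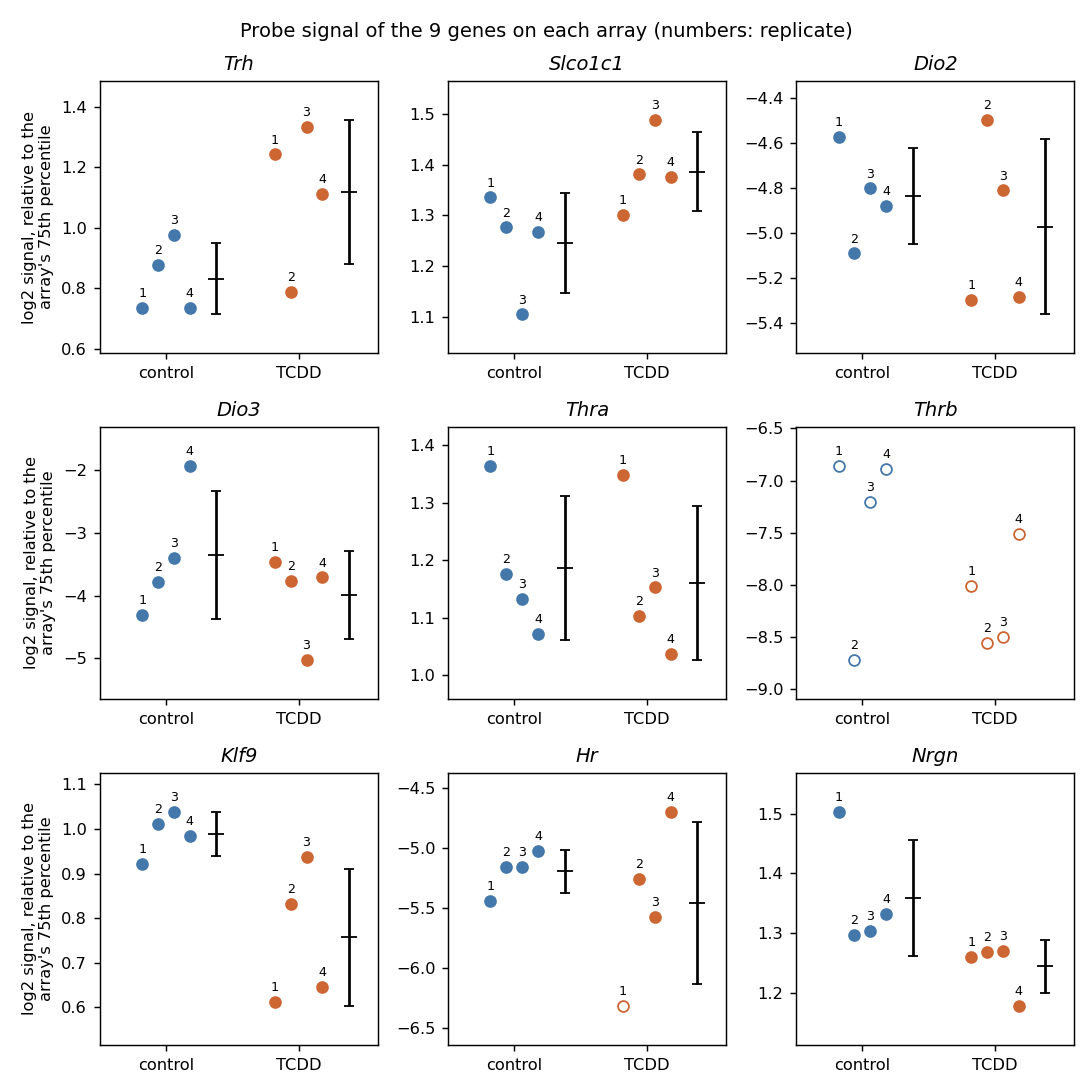
Log2 signal of each gene's probe relative to the array's 75th percentile (vertical axis, a separate scale for each gene) on the 4 control and 4 TCDD arrays, numbered by replicate, with the mean and SD as a black bar. Open circles are spots not well above background; Trh ranges from 0.74 to 0.98 in control and from 0.79 to 1.33 in TCDD dams, and only Nrgn has groups that do not overlap.

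Values below are log2 of the background-corrected probe signal minus the array's own 75th percentile. Signals of different probes cannot be set against each other, so each gene is compared only with itself. The RNA came from bulk tissue, so fewer cells of a type and less RNA per cell cannot be told apart.

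Trh encodes the TRH precursor. Its probe (A_44_P332790) lies on chromosome 4 at 126425344 to 126425403 (rn4, minus strand). Control replicates 1 to 4 gave 0.74, 0.88, 0.98 and 0.74, and TCDD replicates 1 to 4 gave 1.24, 0.79, 1.33 and 1.11. TCDD replicates 1, 3 and 4 lay above every control dam, while TCDD replicate 2 lay within the control range. The means were 0.83 ± 0.12 and 1.12 ± 0.24 (SD, n = 4 each). The log2 fold change was 0.29 (SE 0.12, 95% interval 0.011 to 0.56), or 1.22-fold higher. The unadjusted p was 0.0432 and the limma adjusted p 0.444. With 1 array left out the log2 fold change ran from 0.22 (without TCDD replicate 3, unadjusted p = 0.114) to 0.40 (without TCDD replicate 2, where the groups did not overlap and the limma adjusted p was 0.215). The unadjusted p stayed under 0.05 without control replicate 3 or TCDD replicate 2 and was above it without any other single array.

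The TRH pathway list, on cleavage, degradation and reception of TRH, had 14 of 15 genes measured, 7 with a higher and 7 with a lower mean in TCDD dams and a median of -0.0059 for the log2 fold change. Chga, a granin of secretory granules, had the smallest unadjusted p of the pathway genes, at 0.31 (SE 0.074, unadjusted p = 0.00315, adjusted p = 0.188), and its groups did not overlap. Control dams gave 1.96, 2.19, 2.25 and 2.20 and TCDD dams 2.49, 2.35, 2.50 and 2.49. Trhde, the ectoenzyme that degrades TRH and is found on tanycytes of the median eminence, stood at -0.14 (SE 0.060, unadjusted p = 0.0423, adjusted p = 0.439), with signals of -2.51 ± 0.094 in control and -2.65 ± 0.042 in TCDD dams. The prohormone convertases Pcsk1 and Pcsk2 stood at -0.059 and -0.017 and the amidating enzyme Pam at -0.093. The TRH receptor genes Trhr and Trhr2 stood at 0.17 and 0.12 (unadjusted p = 0.0793 and 0.628).

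Among regulators known to act on the TRH neuron, 16 of 20 genes were measured, 9 higher and 7 lower, with a median of 0.032. Arnt2, the partner of Sim1 in the development of these neurons, stood at 0.15 (SE 0.055, unadjusted p = 0.0272, adjusted p = 0.368), and its groups did not overlap, at 1.23 to 1.38 in control and 1.39 to 1.52 in TCDD dams. As the mean of its probes it stood at 0.084 (unadjusted p = 0.126). The glucocorticoid receptor gene Nr3c1 had the widest difference of this list, at 0.46 (SE 0.20, unadjusted p = 0.0501, adjusted p = 0.464); control replicate 1 gave -3.80 and the other control dams -3.17 to -2.81, while TCDD dams gave -2.95 to -2.63. Without control replicate 1, or as the mean of its probes, it stood at 0.26. The feeding peptides that reach TRH neurons, Npy, Agrp, Pomc and Cartpt, stood at -0.18, -0.28, 0.029 and 0.11, and the melanocortin receptor Mc4r at -0.030. Sim1 itself stood at 0.15 (unadjusted p = 0.323), and Otp was well above background on 0 of 8 arrays. Of 11 listed markers of hypothalamic neurons 10 were measured, 6 with a higher and 4 with a lower mean and a median of 0.029. The list also holds genes of other hypothalamic nuclei, such as Nr5a1 and Fezf1. Its counts and median therefore do not stand for the paraventricular nucleus. Somatostatin (Sst) stood at 0.43 (unadjusted p = 0.00760, limma adjusted p = 0.237), and vasopressin (Avp) and oxytocin (Oxt) at -0.55 and -0.22. The summed signal of the list, in which the bright probes of Avp and Oxt weigh most, was 119 to 228 times the array's 75th percentile in control dams. In TCDD dams it was 101 to 156.

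In the list of pituitary and thyroid genes, 6 of 10 were measured, 3 higher and 3 lower. Its widest value was Tshb, the beta subunit of thyrotropin, at 2.46 (SE 1.93, unadjusted p = 0.237, adjusted p = 0.733). Tshb was brightest on control replicate 4 (1.66), TCDD replicate 2 (2.00) and TCDD replicate 4 (1.65), and stood at -1.91 or lower on the other 5 arrays. Control replicate 2, at -7.37, was the array on which Tshb was not well above background; without it the value was 0.93, and without control replicate 4 it was 3.94. On the 3 arrays bright in Tshb, in the order given, Trh stood at 0.74, 0.79 and 1.11. The pituitary marker list had 6 of 11 members measured, 4 higher and 2 lower, with a summed signal of 1.07 to 35.2 in control and 1.41 to 43.6 in TCDD dams. Pitx1 stood at 0.24 (limma unadjusted p = 0.0108, adjusted p = 0.282), with groups that did not overlap, and Cga at 1.45 (limma unadjusted p = 0.529). Pou1f1, Fshb and Ghrhr were well above background on 0 of 8 arrays. Prl and Gh1, of the same list, passed background on 1 of the control and 3 of the TCDD arrays each and were not tested. The part of this list in the values of the 9 genes was not tested.

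Slco1c1, a transporter of thyroxine across the blood-brain barrier, was the other member with a higher mean in TCDD dams. The probe (A_44_P1029032) lies on chromosome 4 at 179006520 to 179006579 (rn4, plus strand). Signals were 1.34, 1.28, 1.104 and 1.27 in control dams and 1.30, 1.38, 1.49 and 1.38 in TCDD dams. Only TCDD replicate 1 and control replicate 1 crossed, and without either of these arrays the groups did not overlap, whereas without control replicate 3 the log2 fold change was 0.094 (unadjusted p = 0.182). The log2 fold change was 0.14 (SE 0.067, 95% interval -0.013 to 0.29, unadjusted p = 0.0680, limma adjusted p = 0.507), with means of 1.25 ± 0.099 and 1.39 ± 0.077 (SD, n = 4 each). Markers of brain endothelium, where Slco1c1 is known to be strong, had 7 of 10 members measured, 5 higher and 2 lower. Their median log2 fold change was 0.059, with Pecam1 at 0.15, Flt1 at 0.18 and Mfsd2a at -0.11. Summed signals were 9.41 to 10.68 in control and 9.41 to 10.96 in TCDD dams. In these sums the bright probe of Slc2a1, which stood at -0.026, weighs most. Tek and Ly6c were well above background on 0 of 8 arrays. The astrocyte list had 9 of 9 members measured and summed signals of 215 to 228 and 212 to 226. All 5 red blood cell genes had a higher mean in TCDD dams, with log2 fold changes of 0.69 to 1.49. In limma 4 of them stood at an unadjusted p under 0.05, where 7.95% of all genes were higher at that level, and 0 passed after adjustment. Their sums were 109 to 290 in control and 187 to 342 in TCDD dams. The part of the red blood cell genes in the Slco1c1 value was not tested.

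Of the other genes of thyroid hormone transport and binding, 12 of 16 were measured, 5 higher and 7 lower, with a median of -0.0097. The organic anion transporter Slco3a1 stood at -0.15 (SE 0.058, unadjusted p = 0.0298, adjusted p = 0.383), with -0.42 to -0.59 in control and -0.55 to -0.72 in TCDD dams. Slco1a4, Slc7a5 and Slc7a8, further carriers, stood at 0.021, 0.13 and -0.030. Transthyretin (Ttr), a carrier protein made in the choroid plexus, stood at 0.029 and Crym, which binds triiodothyronine in the cytosol, at -0.11.

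Dio2 and Dio3 work in opposite directions on thyroid hormone, and neither passed the test here. Dio2, which makes triiodothyronine and is known from tanycytes and astrocytes, was measured by probe A_64_P155270 on chromosome 6 at 114308225 to 114308284 (rn4, minus strand). Control dams gave -4.57, -5.09, -4.80 and -4.88 and TCDD dams -5.30, -4.50, -4.81 and -5.29. The TCDD values fell on both sides of the control range, with replicates 1 and 4 below it and replicate 2 above it. Means were -4.84 ± 0.21 and -4.97 ± 0.39 (SD, n = 4 each; log2 fold change -0.14, SE 0.19, 95% interval -0.58 to 0.31, unadjusted p = 0.500, limma adjusted p = 0.871). With 1 array left out the value ran from -0.30 to -0.029, and without both arrays numbered 1 the sign turned, at 0.059. The tanycyte list had 8 of 10 members measured, 2 higher and 6 lower, with summed signals of 8.65 to 18.6 in control and 7.43 to 13.3 in TCDD dams.

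Dio3, which inactivates thyroid hormone, was the member that varied most between dams. Its probe (A_43_P11861) is placed on an unordered part of chromosome 6 (6_random) at 1589962 to 1590021 (rn4, plus strand). Signals were -4.31, -3.78, -3.40 and -1.93 in control dams and -3.46, -3.76, -5.03 and -3.71 in TCDD dams. Control replicate 4 was the highest of all 8 dams and TCDD replicate 3 the lowest, and the other 6 lay between -4.31 and -3.40. The summed signal of the tanycyte list was also highest on control replicate 4 (18.6) and lowest on TCDD replicate 3 (7.43). On TCDD replicate 2 this sum was 13.3, where Dio3 stood at -3.76. The part of the tanycyte list in the Dio3 value was not tested. The log2 fold change was -0.64 (SE 0.53, 95% interval -1.85 to 0.58, unadjusted p = 0.265, limma adjusted p = 0.751), from means of -3.36 ± 1.02 and -3.99 ± 0.70 (SD, n = 4 each). Leaving out control replicate 4 gave -0.16, and leaving out TCDD replicate 3 gave -0.29. Of the other genes of the deiodinase and selenoprotein list 6 of 10 were measured, 2 higher and 4 lower, with a median of -0.038. Its widest value was -0.15 for Wsb1, part of the ubiquitin ligase that marks the Dio2 protein for breakdown (SE 0.16, unadjusted p = 0.359), and Dio1 was not well above background on any array.

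**Figure D2:**
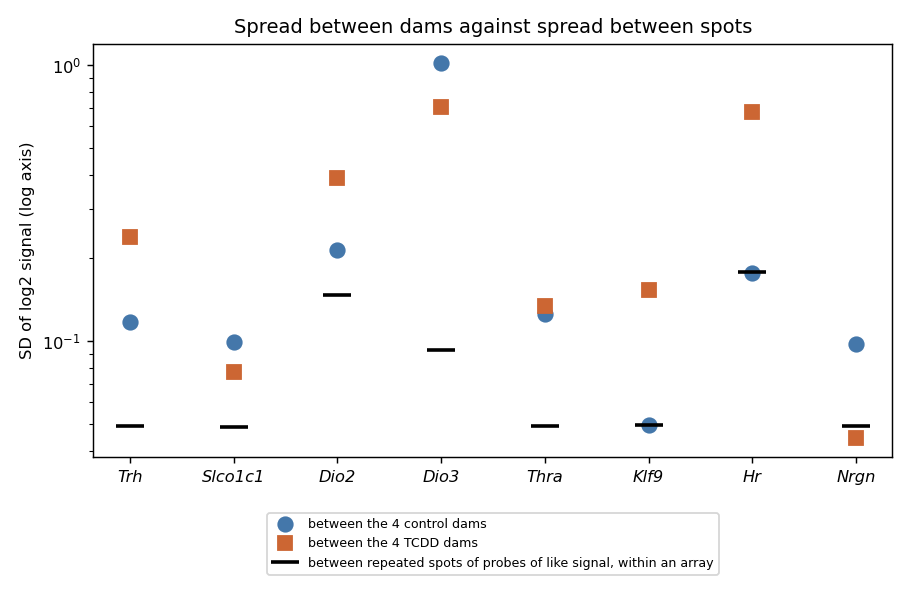
SD of the log2 signal between dams of each group (circles, control; squares, TCDD; n = 4 each) and, as a dash, the median SD between repeated spots within an array for probes within 0.5 of the gene's mean signal, on a log axis. Dio3 has an SD of 1.02 in control and 0.70 in TCDD dams beside a spot SD of 0.093. The spot SD leaves out error between arrays.

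Every dam was measured on 1 array, so the spread between dams holds the error between arrays too, and the spot error below covers that within an array only. Probes printed several times on each array had a median SD between spots of 0.049 at the signal of Trh, Thra, Klf9, Slco1c1 and Nrgn. It was 0.093 at the signal of Dio3, 0.15 at that of Dio2 and 0.18 at that of Hr. The SD between control dams was 1.02 for Dio3, 0.21 for Dio2 and 0.12 for Trh.

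The receptor genes gave one measured and one unmeasured member. Thra, which encodes thyroid hormone receptor alpha, was measured by probe A_43_P12534 on chromosome 10 at 87537328 to 87537387 (rn4, plus strand). Signals were 1.36, 1.18, 1.13 and 1.07 in control and 1.35, 1.103, 1.15 and 1.04 in TCDD dams, so the groups covered nearly the same range. The log2 fold change was -0.026 (SE 0.088, 95% interval -0.23 to 0.18, unadjusted p = 0.776, limma adjusted p = 0.959), an interval of 0.853-fold to 1.13-fold. Its sign turned under normexp and without control replicate 1 or TCDD replicate 4. The probe's annotation lists more than 1 RefSeq transcript, so isoforms cannot be told apart.

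Thrb encodes thyroid hormone receptor beta, the receptor through which triiodothyronine is known to lower Trh. Its probe (A_64_P083635) lies on chromosome 15 at 9282955 to 9283014 (rn4, minus strand) and was well above background on 0 of 8 arrays, so no fold is given. The probes of the receptor pair are shown because they overlap in matching parts of the hormone-binding domain and only that of Thra gave a measured signal. Capitals mark the bases that are the same in the overlap of 38 bases.
Thra: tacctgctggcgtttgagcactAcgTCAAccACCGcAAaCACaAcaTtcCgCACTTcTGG
Thrb: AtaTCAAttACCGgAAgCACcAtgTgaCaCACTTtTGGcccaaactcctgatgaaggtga
Of these 38 bases 25 were identical, or 65.8%.

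Partners and cofactors of the receptors were nearly all measurable, with 19 of 20 in the test. Of these, 8 were higher and 11 lower, with a median of -0.013, and 0 stood at an unadjusted p under 0.05 in limma. The retinoid X receptors Rxra, Rxrb and Rxrg, with which thyroid receptors pair on DNA, stood at -0.23, -0.029 and 0.16. The corepressor Ncor1 stood at 0.098 and the coactivator Ncoa1 at -0.055. The widest value was -0.24 for the acetyltransferase Crebbp (SE 0.17, unadjusted p = 0.197).

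Klf9, a transcription factor induced by triiodothyronine and by glucocorticoids, had the smallest p of the 9 genes. The probe (A_43_P13064) lies on chromosome 1 at 226445625 to 226445684 (rn4, plus strand). Control dams gave 0.92, 1.01, 1.04 and 0.99 and TCDD dams 0.61, 0.83, 0.94 and 0.65. TCDD replicates 1, 2 and 4 lay below every control dam, and TCDD replicate 3 lay just above the lowest of them. Means were 0.99 ± 0.050 and 0.76 ± 0.15 (SD, n = 4 each). The log2 fold change was -0.23 (SE 0.080, 95% interval -0.42 to -0.049), or 1.17-fold lower. The unadjusted p was 0.0190 and the limma adjusted p 0.338, and Klf9 ranked 930 by p among the 16574 genes. In the authors' deposited value table the groups did not overlap. Over 22 alternatives the value ran from -0.29 to -0.18, with an unadjusted p under 0.05 in 20.

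Hr (hairless), a corepressor that thyroid hormone switches on in brain, was measured by probe A_44_P321176 on chromosome 15 at 50972068 to 50972127 (rn4, plus strand). It passed background on all 4 control arrays and on 3 of the TCDD arrays, so it entered the test through the control group alone. Control dams gave -5.44, -5.15, -5.16 and -5.02 and TCDD dams -6.31, -5.25, -5.57 and -4.69, of which the first, TCDD replicate 1, is a background value. TCDD dams held both the highest and the lowest value. The log2 fold change was -0.26 (SE 0.30, 95% interval -0.96 to 0.43, unadjusted p = 0.404, limma adjusted p = 0.830), with means of -5.19 ± 0.18 and -5.46 ± 0.68 (SD, n = 4 each). It was 0.021 without TCDD replicate 1, -0.52 without TCDD replicate 4 and 0.051 with normexp.

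Nrgn, the calmodulin-binding protein neurogranin, a thyroid hormone responsive gene of rat forebrain neurons, was lower in every TCDD dam than in any control dam. Its probe (A_42_P687133) lies on chromosome 8 at 38791251 to 38791310 (rn4, minus strand). Signals were 1.503, 1.30, 1.30 and 1.33 in control and 1.26, 1.27, 1.27 and 1.18 in TCDD dams. The gap between the groups was small: control replicate 2 stood at 1.30 and TCDD replicate 3 at 1.27, and the spot error at this signal was 0.049. Means were 1.36 ± 0.097 and 1.24 ± 0.044 (SD, n = 4 each; log2 fold change -0.11, SE 0.061, 95% interval -0.25 to 0.025, unadjusted p = 0.0945, limma adjusted p = 0.569), or 1.08-fold lower. With quantile normalization, normexp or median scaling the groups overlapped. Without control replicate 1, the highest control dam, the log2 fold change was -0.067 (unadjusted p = 0.226). Markers of cortex and striatum, where Nrgn is abundant, had 10 of 15 members measured, 6 higher and 4 lower. Summed signals were 3.98 to 5.26 in control and 4.36 to 5.13 in TCDD dams. In limma 1 marker stood at an unadjusted p under 0.05 in each direction. Camk2a was at -0.19 (unadjusted p = 0.0342, adjusted p = 0.406) and Emx1 at 0.23 (unadjusted p = 0.00173, adjusted p = 0.154), with groups that did not overlap for Emx1. The cortical genes Tbr1 and Slc17a7, and the striatal gene listed as Drd1a, were well above background on 0 of 8 arrays. Of the thalamus markers, 6 of 7 were higher, with sums of 9.78 to 12.2 and 10.97 to 12.4; the part of these lists in the Nrgn value was not tested.

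**Figure D3:**
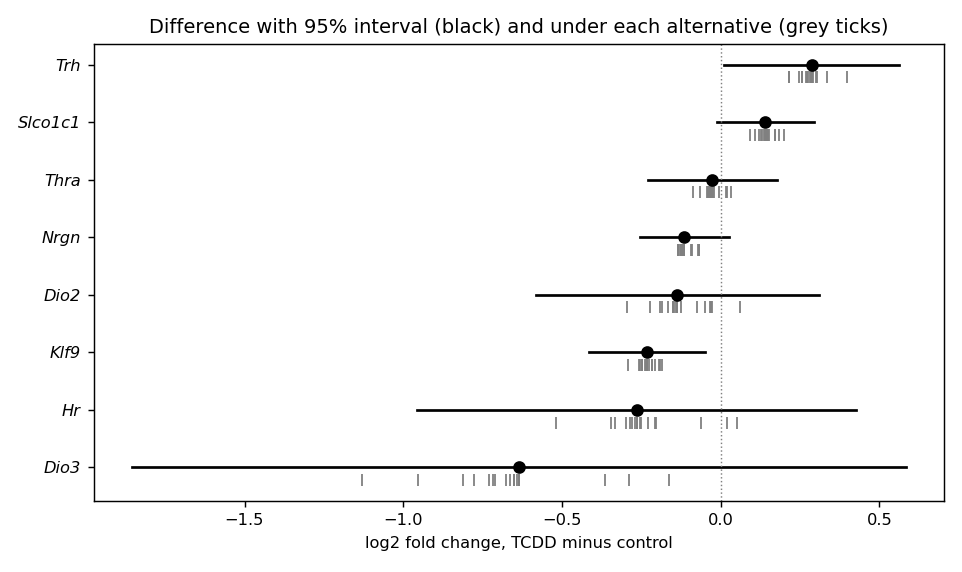
Log2 fold change (TCDD minus control, horizontal axis) of the 8 measured genes, with the 95% interval from limma as a black line and the value under each alternative analysis as a grey tick. The intervals of Trh (0.011 to 0.56) and Klf9 (-0.42 to -0.049) exclude 0 before adjustment, and Dio3 has the widest interval.

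A wider list of genes known to respond to thyroid hormone in brain had 24 of 28 members measured, 11 with a higher and 13 with a lower mean in TCDD dams. Their median was -0.019 on the log2 scale. In limma 0 of the 24 passed and 0 stood at an unadjusted p under 0.05. Myelin genes that triiodothyronine is known to raise in development, Mbp, Mobp and Cnp, stood at 0.12, -0.13 and -0.12. The neuronal targets Camk4, Rasd2 and Homer1 stood at 0.010, 0.039 and -0.025, and the clock output gene Dbp at 0.14. The widest value was -0.82 for Ptgds, prostaglandin D synthase (SE 0.77, unadjusted p = 0.318), which TCDD replicate 2 gave at 6.90 and the other TCDD dams at 3.74 to 4.10, against 3.99 to 6.21 in control dams. Without TCDD replicate 2 it was -1.56. All 7 genes of the meningeal list had a lower mean in TCDD dams, with summed signals of 3.24 to 8.26 in control and, again highest in TCDD replicate 2, 2.51 to 17.2 in TCDD dams; its part in the Ptgds value was not tested.

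Over all 7 lists, 97 of 119 pathway genes were measured, 45 higher and 52 lower, with a median of -0.010 beside 0.0042 for all genes. In limma 0 of the 97 passed. At an unadjusted p under 0.05 there were 4, or 4.12%, beside 10.8% of all genes: Chga and Arnt2 higher, Trhde and Slco3a1 lower. Of all genes with a current symbol or synonym 7.19% stood at that level. The groups did not overlap in 3 of the 97, or 3.09%, beside 7.05% of all genes and 4.43% of those with a current symbol or synonym; these were Chga and Arnt2, both higher, and the coactivator Ncoa1, lower.

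**Figure D4:**
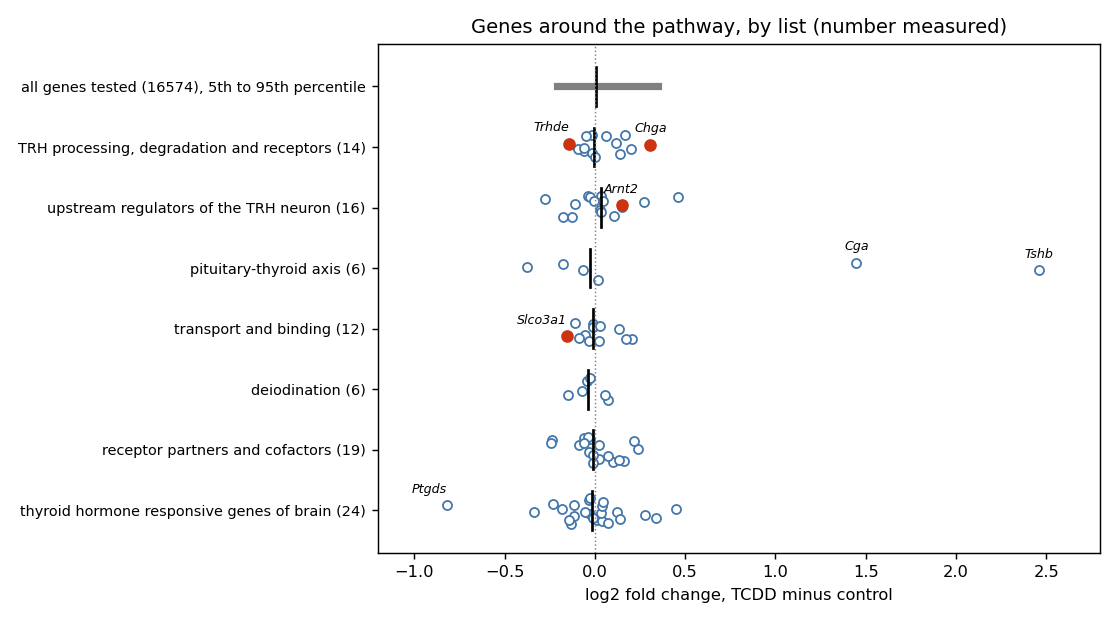
Log2 fold change (TCDD minus control) of each measured gene in the 7 pathway lists, with the list median as a vertical bar; filled circles have an unadjusted p under 0.05. The grey band spans the 5th to 95th percentile of all 16574 genes, -0.21 to 0.35, and outside it by the widest margin lie Tshb, Cga and Ptgds.

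Genes with profiles most like Trh, Dio2 and Nrgn over the 8 arrays were sought among 10498 other genes with a current rat symbol. Likeness was the root mean square difference of log2 signals, each gene centred on its own mean. Closest to Trh were Hlf (0.075), Zfp563 (0.080) and Ndp (0.096), where Trh itself varied by 0.22 about its mean. Like Trh, these had log2 fold changes above 0, at 0.27, 0.35 and 0.20, and none passed the limma test. With normexp Hlf stood at 0.028 and Zfp563 at 0.034. Both are dim probes, with mean signals of -5.12 in control and -4.85 in TCDD dams for Hlf and -6.31 and -5.96 for Zfp563. Closest to Dio2 were Steap3 (0.12), Dydc2 (0.13) and Fstl1 (0.15), where Dio2 varied by 0.28. Closest to Nrgn were Laptm4b (0.028), Lrrc24 (0.031) and Ddx6 (0.033), where Nrgn varied by 0.087. The measure includes the group difference, and the closest of so many genes will lie near by selection alone.

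On each array 69.3% to 73.7% of non-control spots stood well above background and 0 spots were saturated. The 75th percentile of the signal lay between 756 and 1077. Correlations between arrays across probes ran from 0.986 to 0.991. At each gene's own SE, a log2 difference of 0.60 for Nrgn, 0.66 for Slco1c1, 0.79 for Klf9, 1.19 for Trh and 5.24 for Dio3 would have been needed to reach the p of the last gene called.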

How the data were processed

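Hypothalamic RNA from 4 control and 4 TCDD dams was hybridised in 1 colour to Agilent rat arrays. The authors' deposited scanner files hold spot intensities made with Agilent Feature Extraction 10.7.1.1, background-subtracted and detrended within each array per the file headers, on an rn4 design. The authors' deposited value table holds intensities with a median of 65.1 and the same values (within 0.002 on the log2 scale) in all 8 columns, as quantile normalization gives; its correlation with the scanner values was 0.999 or more. Its centring is not given in the sources used here.

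The values used were log2 of the processed signal minus each array's 75th percentile over 42877 non-control spots. Spots the scanner software marked as outliers were left out, and spots of a probe averaged. A probe entered if well above background on all 4 arrays of a group (19102 of 30367 probes). The brightest probe stood for a gene. Group differences were tested with limma 3.58.1 in R 4.3.3, 2-sided. On simulated data (16571 genes, 200 changed) this comparison recovered 16% of log2 changes of 0.25, 64% of 0.5, 86% of 1 and 96% of 2, with 7 false calls. So many changed genes make the adjusted threshold easier to pass than in the real data. There 4 genes were called in limma, the last at an unadjusted p of 7.8e-06. Simulated noise was also independent between genes. The recovered shares are therefore not the power of the real comparison. Summed signals of marker lists add linear signals in units of the 75th percentile. The brightest probes therefore weigh most. Examples are Crym in the tanycyte list, Slc17a6 in the thalamus list, Slc2a1 in the brain endothelium list and Aldoc in the astrocyte list. A sum is thus no measure of the content of a cell type. Figures used Python 3.11.15 and matplotlib 3.10.9.

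Members, lists and tests were chosen with earlier results of these data known. Named were all members, pathway genes at an unadjusted p under 0.05, the widest value of each list and the 3 genes most like Trh, Dio2 and Nrgn; other list genes were named as examples after their values were seen. Some list genes count in the lists and are not reported here by name. Alternatives concerned background, scaling, the authors' table, filter, several probes, spread model, weights, replicate number and arrays left out. Those on the 75th percentile over probes and on named genes only, and the count of members that did not overlap, were added after seeing the data.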

Additional observations from a re-analysis of the deposited data

Results flagged for a closer look

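Among 52 groups of 4 arrays checked for a single distant array (8 members and 18 other named genes, each in control and TCDD dams), 4 had a gap to the nearest array above Dixon's critical value, as a share of the group's range, where chance gives about 1 in 20. For Nrgn, TCDD replicate 4 was lowest at 1.18, a gap of 0.890 of the range, the other TCDD dams lying at 1.26 to 1.27. Chga was lowest in TCDD replicate 2, at 2.35 against 2.49 to 2.50 (0.940). Ptgds was highest in TCDD replicate 2, at 6.90 against 3.74 to 4.10 (0.886). Zfp563, a gene with a profile like that of Trh, was lowest in TCDD replicate 2, at -6.28 against -5.89 to -5.82 (0.861).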

How the results depend on the processing

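Adjusted p-values of the 8 measured members stayed at 0.215 or more in all alternatives run. Trh, Slco1c1, Klf9, Nrgn and Dio3 kept their sign in all 22 (21 were run for Hr, which the filter on all 8 arrays removed). The cause of each of the following changes was not tested. Thra turned to 0.021 with normexp and, over arrays left out, ran from -0.089 to 0.033; Hr turned to 0.051 with normexp and ran from -0.52 to 0.021; Dio2 turned to 0.059 without both arrays numbered 1. Steap3 turned to 0.027 with array weights, to 0.080 without both arrays numbered 1 and ran from -0.20 to 0.0012 over arrays left out, and Fstl1 to 0.0052 with normexp. Trh and Klf9 stood at an unadjusted p under 0.05 in 12 and 20 of 22 alternatives. The count of such members, 2, was 1 with normexp, median scaling, the authors' table or no filter, 3 (Slco1c1 added) with trended robust variances or array weights, and 0 to 2 with an array left out (0 without TCDD replicate 4). Members that did not overlap, 1 (Nrgn), were 0 with normexp or quantile normalization, 1 with median scaling (Klf9 in place of Nrgn), 2 with the authors' table or the 75th percentile over probes, 3 without both arrays numbered 1, and 1 to 3 with 1 array left out. Pathway genes at that level, 4, were 9 with array weights, 7 with the replicate block, and 1 to 8 with an array left out (1 without control replicate 1). Genes called, 4, were 28 with normexp, 27 with median scaling, 34 with trended robust variances, 91 with array weights, 2 without both arrays numbered 1, 0 without a filter, with named genes only or with the replicate block, and 0 to 8 with an array left out; 2032 and 858 genes stood at an unadjusted p under 0.05 without a filter and with named genes only.

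Replicate numbers were not taken as a pairing. Correlations of same-numbered arrays' deviations were 0.23, -0.0031, -0.046 and 0.10, and only control replicate 1 was most like the TCDD array of its own number. Both arrays numbered 1 also had the lowest 75th percentiles, 756 and 806. With the replicate block in limma 2139 genes stood at an unadjusted p under 0.05, beside 1786 without it. The SE of Thra went from 0.088 to 0.048, and the unadjusted p of Slco1c1 from 0.0680 to 0.141. A block in this balanced design cannot move a fold change. Whether same-numbered arrays share a source of variation was not tested further. Hr and Dio2 lay near background, which limits their precision.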
